A study of Rattus norvegicus with 15 samples.

Results

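The 10 genes described here belong to the NRF2 and glutathione defence and were followed in rat liver RNA: the transcription factor gene Nfe2l2, which encodes NRF2, its inhibitor gene Keap1, and 8 genes that NRF2 is known to switch on, Nqo1, Hmox1, Gclc, Gclm, Txnrd1, Srxn1, Slc7a11 and Gsr. They were chosen by name, as the rows of the deposited table with these symbols, by a rule that uses no measured value, though with earlier results of these data known; the glutathione transferases were kept apart. All 10 were among the 21576 genes of the table, and all 10 were among the 13163 genes with enough counts to be tested.

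Livers came from male Sprague-Dawley rats in 3 groups, each with 5 RNA sequencing libraries numbered 1 to 5 in their titles; no age is given. The CON group was kept on normal chow. The HFD group had a lipid-raising feed of 66% base forage, 16.7% sucrose, 8.3% yolk, 7% lard, 2% cholesterol, 0.3% sodium cholate and 0.2% propylthiouracil, an inhibitor of thyroid hormone synthesis, for 8 weeks, and were given saline over the last 4. The ZXD group had that same feed, propylthiouracil included, and over the last 4 weeks a daily oral dose of 2.2 g per kg of Zexie Decoction, a herbal extract. Each group had 10 rats, and the labels do not say which of them a library came from, so the p-values below measure the spread between these libraries, which may in part be technical. The study asked how the decoction acts on hyperlipidemia.

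NRF2 is held in the cytoplasm by KEAP1, which hands it to a ubiquitin ligase for degradation. Oxidants and electrophiles modify KEAP1, and NRF2 then collects in the nucleus, pairs with a small MAF protein and binds antioxidant response elements near its target genes. In the liver these targets make and recycle glutathione, reduce quinones and peroxides, and break down heme. NRF2 is controlled largely at the level of the protein, which RNA does not show.

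The core of an antioxidant response element is written TGACNNNGC, and TGAGNNNGC is a common variant. Both were searched on both strands of RefSeq promoters (build GRCr8), from 250 bases before to 50 bases after a gene's start. A window of this kind was at hand for 8 of the 10 genes, with 2 windows for Txnrd1; Hmox1 and Gsr had none. TGACNNNGC was found in the windows of Nfe2l2, Gclm and Txnrd1, and TGAGNNNGC, at 3 places, in that of Srxn1; no match overlapped another. Of all 33469 promoters, 12.1% held TGACNNNGC and 17.2% held TGAGNNNGC, so a match is common. The upstream matches are shown because Gclm and Srxn1 moved in opposite directions in the data below and Txnrd1 passed the test in neither direction. Each line runs 5′ to 3′ on the gene's strand, and the capitals mark the match, which in all 4 reads as the reverse complement.
Gclm, chr2:213031943-213031991 (+), match 172 to 164 bases before the start: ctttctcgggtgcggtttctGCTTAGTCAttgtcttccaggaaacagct
Txnrd1, chr7:22755954-22756002 (-), match 78 to 70 bases before the start: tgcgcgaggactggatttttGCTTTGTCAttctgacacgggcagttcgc
Srxn1, chr3:161064674-161064722 (+), match 118 to 110 bases before the start: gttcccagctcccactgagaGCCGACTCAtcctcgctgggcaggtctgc
Srxn1, chr3:161064775-161064811 (+), match 17 to 9 bases before the start: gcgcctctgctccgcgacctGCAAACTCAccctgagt
The third Srxn1 match lay across the start, from 5 bases before it to base 3 after it, and the Nfe2l2 match lay 38 to 46 bases after the start. No match to these letters stood in the windows of Keap1, Nqo1, Gclc and Slc7a11 or in the other Txnrd1 window. A match of letters is a description and no measurement of binding.

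Read counts summed to between 12552449 and 14228052 per library. The values below are CPM, counts per 1000000 of a library size scaled with TMM factors, which were 0.793 to 0.867 for CON and 1.01 to 1.28 for HFD and ZXD libraries. Comparisons used edgeR's quasi-likelihood test over all 13163 tested genes, with Benjamini-Hochberg adjustment, and genes with an adjusted p under 0.05 are said to be called. A pair of facts of these libraries bear on every comparison with CON, and the second bears on ZXD versus HFD as well. First, on plain library totals the median gene moved by 0.44 (log2) in HFD versus CON and by 0.46 in ZXD versus CON, against 0.02 and 0.03 with TMM, and the share of calls that were higher went from 47.9% to 91.4% and from 54.8% to 90.6%. Second, the markers of other liver cells differed: the summed level of 22 macrophage and Kupffer cell markers lay between 407 and 1114 CPM in CON, between 676 and 2472 in HFD and between 1067 and 5756 in ZXD, and that of 12 hepatocyte markers between 167725 and 209836 CPM in CON, between 77622 and 109590 in HFD and between 57193 and 117535 in ZXD. In bulk tissue, fewer cells of a type and less RNA per cell cannot be told apart. Of the other marker lists, 7 of 11 tested T, B and NK cell, 2 of 5 neutrophil and mast cell, 0 of 8 endothelial, 0 of 8 stellate cell and 0 of 3 red cell markers were called higher in HFD versus CON, and 10, 2, 4, 1 and 0 in ZXD versus CON. Summed endothelial markers lay between 89.3 and 327 CPM in CON, between 80.6 and 322 in HFD and between 355 and 524 in ZXD. Every ZXD library thus lay above every HFD library in that sum, though no marker was called between these groups. The highest macrophage sums of their groups stood in HFD 2 and HFD 5 and in ZXD 3 and ZXD 4, and results are also given without those 4 libraries, a choice made after the data were seen.

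In HFD versus CON, the regulator Nfe2l2 and the targets Nqo1, Hmox1 and Srxn1 were higher, while Gclc and Gclm, the subunits of the enzyme that limits glutathione synthesis, were lower. That is 4 of 10 genes called higher, where 10.0% of all tested genes were, and 2 called lower, where 10.9% of all were. Keap1, Txnrd1, Slc7a11 and Gsr were not called. The median log2 fold change was 0.37 over the 10 genes and 0.02 over all tested genes. With Slc7a11 left out, for the reason given below, the median is the value of Keap1, 0.11. Groups did not overlap for 3 genes that lay higher, Nfe2l2, Hmox1 and Slc7a11 (6.59% of all genes), and for 1 that lay lower, Gclm (8.46% of all genes). Of these, Slc7a11 had 3 counts in all of CON and passed the low-count filter only through HFD and ZXD, so a difference was a condition of its being tested, and it is not to be read against the share of all genes. Gclm, Nqo1 and Nfe2l2 stayed called on leaving out any 1 of the 15 libraries. Hmox1, Gclc and Srxn1 passed narrowly and lost their calls in many such fits, as given with each gene.

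In ZXD versus CON, 5 of the 10 genes were called higher (17.9% of all tested genes were), namely Nfe2l2, Nqo1, Hmox1, Srxn1 and Slc7a11. Without Slc7a11, for the reason just given, 4 are left to set against that share. Gclc and Gclm were called lower (14.8% of all tested genes were). The median log2 fold change over the 10 was 0.19, against 0.03 over all tested genes. With Slc7a11 left out, the median is the value of Keap1, -0.01, so no upward shift of the set is left. Groups did not overlap for 2 genes that lay higher, Nfe2l2 and Nqo1 (8.2% of all genes), and for Gclm, which lay lower (9.79% of all genes). This comparison and the last share the CON libraries, so the likeness of their calls is not a second observation.

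Between ZXD and HFD, none of the 10 genes was called, and edgeR called 0 of 13163 genes, or 0.0%. At an unadjusted p under 0.05 edgeR had 2167 genes (16.5%), of which Slc7a11 was the only one of the 10. limma voom called 0 genes as well (2129 at an unadjusted p under 0.05), and DESeq2 called 348 (2445), none of them among the 10. Nor was there a gene of the 10 whose groups did not overlap (2.14% of all genes lay higher in this way and 1.53% lower). The 95% intervals given below show how large a difference could have been missed.

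**Figure D1:**
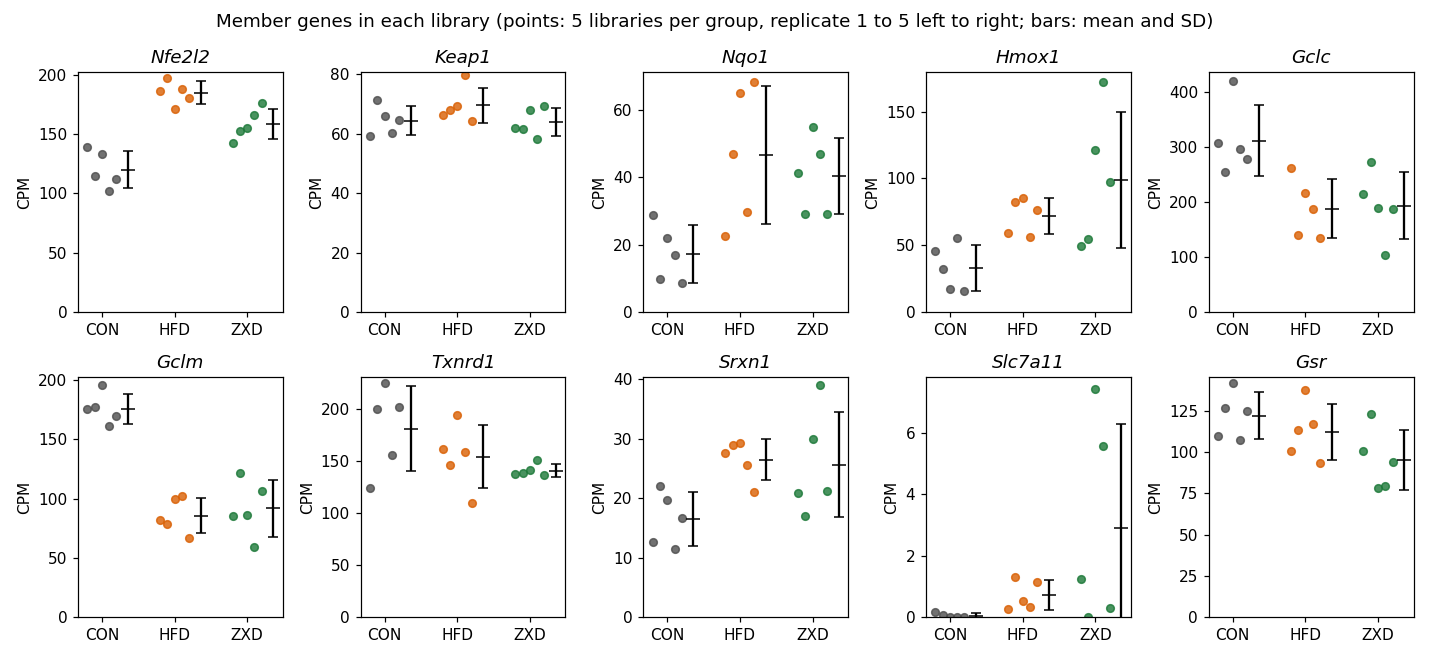
Level of each of the 10 genes in every library, in CPM on linear axes that start at 0; points are libraries 1 to 5 from left to right in each group, and bars are the mean and SD of 5 libraries (the lower Slc7a11 bars run below 0 and are clipped). Gclm shows 5 CON points above every HFD and ZXD point, Nfe2l2 shows the reverse, and Hmox1 spreads from 49.3 to 172 CPM within ZXD.

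The regulator came first. Nfe2l2 stood at 139, 115, 133, 102 and 112 CPM in CON libraries 1 to 5, at 186, 198, 171, 188 and 181 in HFD, and at 143, 153, 155, 166 and 176 in ZXD. Every HFD and ZXD library lay above every CON library, and 4 of the 5 ZXD libraries lay below every HFD library. Nfe2l2 rose 1.54-fold in HFD versus CON (log2 fold change 0.62, SE 0.11, edgeR adjusted p = 0.00143) and 1.32-fold in ZXD versus CON (log2 0.40, SE 0.11, edgeR adjusted p = 0.0119). Its log2 difference between ZXD and HFD was -0.22 (95% interval -0.45 to 0.0069, edgeR adjusted p = 0.317). On library totals the HFD rise was 1.04 on the log2 scale (edgeR adjusted p = 5.23e-05). Without the 4 libraries highest in macrophage markers the HFD rise was 0.60 (edgeR adjusted p = 0.0106), and the ZXD value was 0.39 and no longer called (edgeR adjusted p = 0.0581).

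Keap1, the inhibitor, held to a narrow band: its lowest and highest levels were 59.4 and 71.5 CPM among CON libraries, 64.3 and 79.8 among HFD and 58.3 and 69.5 among ZXD libraries. The 3 groups overlapped. Its log2 fold change was 0.11 (SE 0.09, edgeR adjusted p = 0.399) in HFD versus CON and -0.01 (SE 0.09, edgeR adjusted p = 0.932) in ZXD versus CON. On library totals, Keap1 was called higher at 0.53 (edgeR adjusted p = 0.000887) and 0.41 (edgeR adjusted p = 0.00271), values close to the shift of 0.44 and 0.46 in the median gene. Between ZXD and HFD it differed by -0.12 on the log2 scale (95% interval -0.32 to 0.07).

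The ratio of Keap1 to Nfe2l2 within a library needs no scaling between libraries. In FPKM, which divides by gene length as well as by the library total, it was 0.312, 0.454, 0.362, 0.430 and 0.421 in CON, 0.259, 0.251, 0.295, 0.309 and 0.260 in HFD, and 0.315, 0.294, 0.319, 0.256 and 0.288 in ZXD. All HFD libraries lay below all CON libraries, and 3 of the 5 ZXD libraries did so too. The mean log2 ratio was lower by 0.52 in HFD than in CON (difference -0.52, n = 5 and 5, two-sided exact permutation p = 0.00794, the smallest that 5 against 5 can give, adjusted over 9 ratio tests 0.0238). The difference of -0.42 in ZXD versus CON did not pass after adjustment (exact permutation p = 0.0238, adjusted 0.0536), and ZXD and HFD differed by 0.10 (exact permutation p = 0.262, adjusted 0.330).

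Nqo1 encodes a quinone reductase and is widely used as a readout of NRF2. It stood at 28.8, 9.81, 22.04, 16.8 and 8.60 CPM in CON, at 22.6, 46.9, 65.1, 29.7 and 68.2 in HFD, and at 41.1, 29.1, 54.8, 47.0 and 29.1 in ZXD. Of the HFD libraries, 4 lay above every CON library and HFD 1 lay among them; the lowest ZXD library lay just above the highest CON library. Nqo1 rose 2.70-fold in HFD versus CON (log2 1.43, SE 0.36, edgeR adjusted p = 0.0143) and 2.34-fold in ZXD versus CON (log2 1.22, SE 0.36, edgeR adjusted p = 0.0194). ZXD and HFD differed by -0.21 on the log2 scale (95% interval -0.96 to 0.55). The ZXD call was lost without CON 2 (edgeR adjusted p = 0.0538) or ZXD 3 (edgeR adjusted p = 0.0501). Both calls were lost without the 4 libraries highest in macrophage markers, at 1.19 (edgeR adjusted p = 0.0931) for HFD and 0.95 (edgeR adjusted p = 0.146) for ZXD.

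Hmox1 encodes the inducible heme oxygenase, which opens the heme ring and frees its iron, and which macrophages also express. It stood at 45.6, 32.0, 17.1, 55.2 and 15.5 CPM in CON, at 59.2, 82.4, 85.2, 56.1 and 76.4 in HFD, and at 49.3, 54.7, 121, 172 and 97.5 in ZXD. The lowest HFD library exceeded the highest CON library by under 1 CPM. In ZXD, libraries 3, 4 and 5 lay above every HFD library, and libraries 1 and 2 lay below every HFD library and within reach of CON. Hmox1 rose 2.17-fold in HFD versus CON (log2 1.12, SE 0.38, edgeR adjusted p = 0.0494) and 2.99-fold in ZXD versus CON (log2 1.58, SE 0.38, edgeR adjusted p = 0.00768). ZXD and HFD differed by 0.46 on the log2 scale (95% interval -0.34 to 1.26, edgeR adjusted p = 0.532).

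The HFD call of Hmox1 was lost without any 1 of CON 2, CON 3, CON 5, HFD 1, HFD 2, HFD 3, HFD 5, ZXD 3 or ZXD 5 (edgeR adjusted p between 0.0545 and 0.106). The ZXD call held on leaving out any single library. At the ends of the range Hmox1 and the macrophage markers went together. The 2 lowest sums, 410 CPM in CON 3 and 407 in CON 5, came with the 2 lowest Hmox1 levels. The 2 highest, 4240 CPM in ZXD 3 and 5756 in ZXD 4, came with the 2 highest. In CON 2, CON 4 and CON 1, sums of 799, 1066 and 1114 CPM came with Hmox1 at 32.0, 55.2 and 45.6 CPM. In ZXD 2, ZXD 1 and ZXD 5, sums of 1067, 1798 and 2312 CPM came with Hmox1 at 54.7, 49.3 and 97.5 CPM. The order thus nearly held within CON and within ZXD. It broke in HFD and between groups: HFD 3, with a sum of 1261 CPM, had the highest Hmox1 level of HFD, and ZXD 1 had less Hmox1 than HFD 4, with a sum of 676. Without the 4 libraries highest in those markers, Hmox1 was at 1.02 in HFD versus CON (edgeR adjusted p = 0.132), at 1.02 in ZXD versus CON (edgeR adjusted p = 0.111) and at 0.01 in ZXD versus HFD. Of the 22 markers, 8 were called higher in HFD and 17 in ZXD versus CON. Trem2 was the only marker of this list without a count in some libraries, namely CON 1, CON 3, CON 4, CON 5 and ZXD 5. Resident and recruited macrophages were not told apart. The part of macrophage RNA in the Hmox1 and Nqo1 values was not tested.

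**Figure D2:**
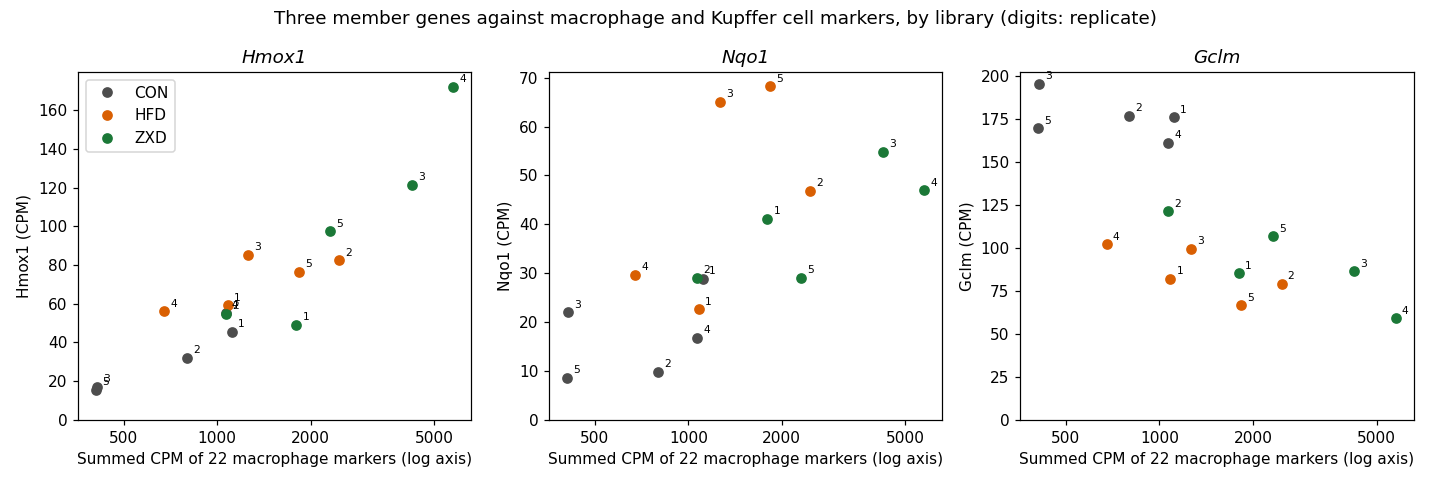
Hmox1, Nqo1 and Gclm levels (CPM, vertical axes from 0) against the summed CPM of 22 macrophage and Kupffer cell markers (log axis) in the 15 libraries, with the replicate number beside each point. Hmox1 is lowest in CON 3 and CON 5 and highest in ZXD 3 and ZXD 4, the libraries at the ends of the marker axis, whereas Gclm is high in all 5 CON libraries, whose marker sums of 407 to 1114 CPM reach into those of HFD.

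Hmox2, the constitutive heme oxygenase, went the other way: CON livers held 79.7 ± 9.20 CPM, HFD livers 49.0 ± 3.77 and ZXD livers 44.1 ± 3.87 (SD, n = 5). It fell by 0.70 on the log2 scale in HFD (edgeR adjusted p = 0.000436) and by 0.85 in ZXD (edgeR adjusted p = 8.72e-05). The ratio of Hmox1 to Hmox2 in FPKM was 0.865, 0.456, 0.257, 0.936 and 0.227 in CON, 1.68, 1.998, 2.34, 1.41 and 1.81 in HFD, and 1.29, 1.46, 3.55, 5.64 and 2.80 in ZXD. Thus Hmox2 was the higher of the pair in every CON library, and Hmox1 in every HFD and ZXD library. The log2 ratio was higher by 1.97 in HFD and by 2.45 in ZXD than in CON (both two-sided exact permutation p = 0.00794, adjusted 0.0238), and ZXD and HFD differed by 0.48 (exact permutation p = 0.294, adjusted 0.330).

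Glutathione is made from glutamate and cysteine by glutamate-cysteine ligase, whose catalytic subunit is encoded by Gclc and whose modifier subunit, encoded by Gclm, makes it more efficient. Gclm stood at 176, 177, 196, 161 and 170 CPM in CON, at 82.0, 79.1, 99.6, 102 and 66.6 in HFD, and at 85.3, 121, 86.5, 59.1 and 107 in ZXD. All 10 libraries of the lipid-raising feed lay below all 5 CON libraries, with a gap between 121 and 161 CPM. Gclm fell 2.05-fold in HFD (log2 -1.03, SE 0.17, edgeR adjusted p = 0.00103) and 1.92-fold in ZXD (log2 -0.94, SE 0.17, edgeR adjusted p = 0.00169), both versus CON. ZXD and HFD differed by 0.10 on the log2 scale (95% interval -0.26 to 0.46).

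Gclm was the steadiest of the 10. Both calls held without any single library, on library totals (-0.62 in HFD, edgeR adjusted p = 0.00373) and without the 4 libraries highest in macrophage markers (-0.89 in HFD, edgeR adjusted p = 0.00222, and -0.75 in ZXD, edgeR adjusted p = 0.00543). The hepatocyte markers were lower in the same direction: 4 of 12 were called lower in HFD and 5 of 12 in ZXD versus CON, with none called higher. Their part in the lower Gclm and Gclc values was not tested.

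Gclc stood at 308, 255, 421, 298 and 279 CPM in CON, at 263, 140, 216, 188 and 135 in HFD, and at 214, 272, 189, 104 and 188 in ZXD. In both groups on the lipid-raising feed, 4 of 5 libraries lay below every CON library, and HFD 1 and ZXD 2 lay above CON 2. Gclc fell 1.66-fold in HFD (log2 -0.73, SE 0.24, edgeR adjusted p = 0.0451) and 1.61-fold in ZXD (log2 -0.69, SE 0.24, edgeR adjusted p = 0.0403). The HFD call was lost without any 1 of CON 1 to CON 5, HFD 2 to HFD 5, ZXD 1, ZXD 3 or ZXD 5 (edgeR adjusted p between 0.0534 and 0.127), and the ZXD call without any 1 of CON 1, CON 3, CON 4, CON 5, ZXD 1, ZXD 3, ZXD 4 or ZXD 5 (edgeR adjusted p between 0.0514 and 0.110). On library totals Gclc was at -0.30 (edgeR adjusted p = 0.257) and -0.29 (edgeR adjusted p = 0.272), and without the 4 libraries highest in macrophage markers at -0.49 (edgeR adjusted p = 0.116) and -0.47 (edgeR adjusted p = 0.108), so neither call held there. ZXD and HFD differed by 0.04 (95% interval -0.48 to 0.55).

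The ratio of Gclm to Gclc in FPKM averaged 1.18 ± 0.173 in CON, 0.972 ± 0.205 in HFD and 0.9998 ± 0.158 in ZXD (SD, n = 5), and the groups overlapped. The log2 ratio differed by -0.30 between HFD and CON (exact permutation p = 0.119, adjusted 0.190) and by -0.24 between ZXD and CON (exact permutation p = 0.127, adjusted 0.190). A difference between the falls of the subunits was therefore not detected with these libraries.

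Slc7a11 encodes the cystine carrier of the xCT antiporter, which brings in the building block for cysteine. Its counts were 2, 1, 0, 0 and 0 in CON, 4, 19, 7, 5 and 17 in HFD, and 18, 0, 106, 91 and 4 in ZXD, out of the library totals given above. The gene was close to silent in CON, and reached 7.41 CPM in ZXD 3 and 5.55 CPM in ZXD 4. For scale, 3 counts, taken as the lowest level that can be told from 0, correspond to 0.183 to 0.285 CPM. All HFD libraries lay above all CON libraries, and within ZXD the counts came mostly from libraries 3 and 4, which also held the most macrophage marker RNA.

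Summed over a group, Slc7a11 had 3 counts in CON, 52 in HFD and 219 in ZXD. Per scaled library size the ratio was 13.3 for HFD over CON (95% exact interval 4.31 to 66.7), 56.8 for ZXD over CON (19.2 to 278) and 4.26 for ZXD over HFD (3.14 to 5.89). These intervals cover counting error alone, not the spread between libraries. Over the libraries, edgeR did not call HFD versus CON (adjusted p = 0.0779) and called ZXD versus CON (adjusted p = 0.00654). For ZXD versus HFD its log2 difference was 2.00 (95% interval 0.0081 to 4.00, edgeR adjusted p = 0.301). The HFD comparison was called without ZXD 2 (edgeR adjusted p = 0.0338), on library totals (edgeR adjusted p = 0.0324) and by DESeq2 (adjusted p = 0.0220). limma voom did not call the ZXD comparison (adjusted p = 0.10), and without the 4 libraries highest in macrophage markers the gene no longer had enough counts to be tested.

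Srxn1 encodes sulfiredoxin, which repairs overoxidised peroxiredoxins. It stood at 12.7, 22.1, 19.8, 11.5 and 16.6 CPM in CON, at 27.6, 29.0, 29.2, 25.6 and 21.0 in HFD, and at 20.8, 17.1, 29.98, 38.9 and 21.2 in ZXD. Above every CON library lay 4 of 5 HFD libraries, but in ZXD only libraries 3 and 4. Srxn1 rose 1.60-fold in HFD (log2 0.68, SE 0.23, edgeR adjusted p = 0.0442) and 1.55-fold in ZXD (log2 0.63, SE 0.22, edgeR adjusted p = 0.0424), both versus CON. ZXD and HFD differed by -0.05 (95% interval -0.52 to 0.43).

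The HFD call of Srxn1 was lost without any 1 of CON 1, CON 4, CON 5, HFD 1 to HFD 4, ZXD 3 or ZXD 5 (edgeR adjusted p between 0.0514 and 0.0923). Its ZXD call was lost without any 1 of CON 1, CON 4, CON 5, HFD 1, HFD 2, HFD 3, ZXD 3 or ZXD 4 (edgeR adjusted p between 0.0501 and 0.135) and with limma voom (adjusted p = 0.0598). Without the 4 libraries highest in macrophage markers the HFD value was 0.74 (edgeR adjusted p = 0.0326) and the ZXD value 0.26 (edgeR adjusted p = 0.396). The rise in HFD was thus as large without HFD 2 and HFD 5, while the ZXD value rested on ZXD 3 and ZXD 4.

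Txnrd1 and Gsr encode the reductases that use NADPH to recycle thioredoxin and glutathione. Txnrd1 stood at 124, 200, 225, 156 and 201 CPM in CON, at 162, 146, 194, 158 and 110 in HFD, and at 138, 138, 141, 151 and 136 in ZXD. The ZXD libraries lay close together, with an SD of 5.87 CPM against 40.6 in CON, and inside the CON range. Txnrd1 was at -0.23 (SE 0.17, edgeR adjusted p = 0.321) in HFD versus CON and at -0.36 (SE 0.17, edgeR adjusted p = 0.105) in ZXD versus CON. Without CON 1, the lowest CON library, the ZXD value was -0.48 and called (edgeR adjusted p = 0.0277).

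Gsr stood at 110, 127, 142, 107 and 125 CPM in CON, at 101, 113, 137, 117 and 93.1 in HFD, and at 101, 123, 78.3, 79.5 and 94.1 in ZXD. Below every CON library lay 4 of 5 ZXD libraries. Its log2 fold change was -0.12 (SE 0.14, edgeR adjusted p = 0.570) in HFD versus CON and -0.36 (SE 0.14, edgeR adjusted p = 0.0658) in ZXD versus CON. The ZXD comparison was called by DESeq2 (adjusted p = 0.0411) and by edgeR without ZXD 2 (-0.49, adjusted p = 0.0142). ZXD and HFD differed by -0.24 for Gsr (95% interval -0.55 to 0.06) and by -0.13 for Txnrd1 (95% interval -0.48 to 0.22). On library totals the values of both genes turned positive versus CON, to 0.30 and 0.05 for Gsr and 0.18 and 0.07 for Txnrd1 in HFD and ZXD, none of them called.

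**Figure D3:**
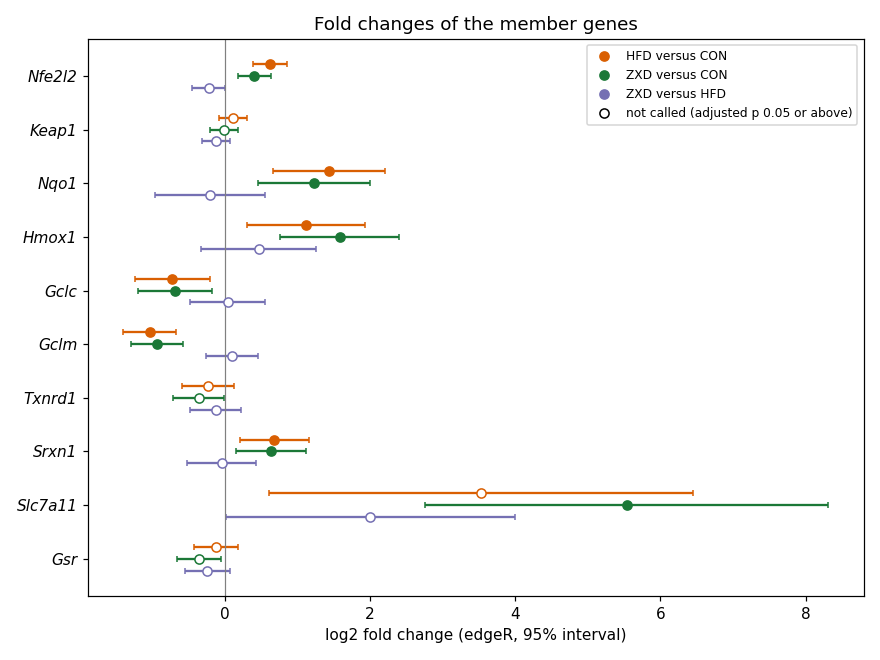
Log2 fold change of the 10 genes in the 3 comparisons, with 95% intervals from edgeR; filled points were called at an adjusted p under 0.05 and open points were not. All ZXD versus HFD points are open, the points of Gclc and Gclm versus CON lie left of 0, and those of Nfe2l2, Nqo1, Hmox1 and Srxn1 versus CON lie right of it; scaling on library totals would shift the CON comparisons by about 0.44 and turn the signs of Txnrd1 and Gsr, and of Keap1 in ZXD versus CON.

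Levels of different genes can be set beside each other per length, in FPKM, within a group. In CON the order was Gclm (97.2 ± 7.45), Gclc (84.1 ± 16.6), Gsr (54.3 ± 6.83), Txnrd1 (43.4 ± 10.2), Nfe2l2 (42.9 ± 5.58), Hmox1 (17.4 ± 8.84), Keap1 (16.8 ± 1.47), Nqo1 (9.67 ± 4.70), Srxn1 (4.73 ± 1.31) and Slc7a11 (0.00496) FPKM (SD, n = 5). Within the larger of their SDs lay the neighbours Gclm and Gclc, Txnrd1 and Nfe2l2, and Hmox1 and Keap1. In HFD, Nfe2l2 led at 88.2 ± 5.09 FPKM, and Gclc (68.1 ± 19.9), Gsr (66.6 ± 8.75) and Gclm (63.3 ± 9.71) followed, each within the larger SD of the next. Below these stood Hmox1 (51.1 ± 9.37), Txnrd1 (49.2 ± 9.14), Nqo1 (35.1 ± 15.6), Keap1 (24.2 ± 1.63) and Srxn1 (10.1 ± 1.21), where Hmox1, Txnrd1, Nqo1 and Keap1 each lay within the larger SD of the next. In ZXD, Nfe2l2 (76.3 ± 10.7) and Hmox1 (73.2 ± 44.4) stood first, and Gclc (68.7 ± 17.0) and Gclm (67.1 ± 12.5) followed within the larger SD of the next, so no order among these 4 can be read.

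The libraries also differed in which of the 10 genes varied. Within CON, Nqo1 and Hmox1 had coefficients of variation of 49.2% and 52.6%, against 7.23% for Gclm, 7.62% for Keap1 and 12.7% for Nfe2l2. In HFD that of Hmox1 was 18.6% and that of Nqo1 43.9%, and in ZXD they were 51.2% and 28.0%. The intervals of Nqo1 and Hmox1 above are accordingly wide.

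The genes whose levels over the 15 libraries were nearest to those of Nqo1 were Prtfdc1, Cd276 and Ticam1, with root mean square differences in standardised log2 CPM of 0.421, 0.422 and 0.425, against a median of 1.36 over all tested genes. CON, HFD and ZXD held 2.39 ± 1.37, 13.2 ± 8.12 and 8.27 ± 3.87 CPM of Prtfdc1, and 6.73 ± 3.18, 50.6 ± 36.5 and 29.8 ± 7.97 of Cd276 (SD, n = 5). Nearest to Hmox1 were Cd200r1l (0.258), Rap1gap2 (0.304) and Rps6ka3 (0.316), with the same median of 1.36. Levels of Cd200r1l were 4.52 ± 2.32, 8.76 ± 2.68 and 13.8 ± 5.16 CPM in CON, HFD and ZXD, an order of groups like that of Hmox1. All these points share their libraries and scaling, and the likeness is a description.

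Another 9 lists of genes around the pathway were counted, with the 10 genes above left out of them. Ftl1, Fth1, Blvrb, Sesn2, Chac1 and Slc3a2 stand in more than 1 list and are counted in each, so the lists are not separate observations. None of their genes was called in ZXD versus HFD. Their counts are to be read against the shares of all tested genes, 10.0% higher and 10.9% lower in HFD versus CON and 17.9% and 14.8% in ZXD versus CON; a list near these shares shows nothing of its own. The counts versus CON also depend on the scaling, since on library totals most lists had more genes called higher and fewer called lower, and that count is given beside each. Ranges on leaving out 1 library are given where a count moved by over 1.5 times, and the libraries are named for the larger counts.

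Partners of NRF2 and the machinery that turns it over, such as the MAF proteins, CUL3 and p62, numbered 15. In HFD versus CON 1 was higher and 1 lower, 6.67% each (median log2 fold change -0.17). The one higher, Mafk, a small MAF that pairs with NRF2 on DNA, went from 25.2 ± 3.52 to 53.6 ± 12.4 CPM (SD, n = 5, log2 1.09, edgeR adjusted p = 0.0011), and it was higher in ZXD too (log2 0.90, edgeR adjusted p = 0.00307). The one lower, Bach2, a repressor of the same sites, was at -1.09 (edgeR adjusted p = 0.0480), a call lost on leaving out any 1 of 12 libraries (highest edgeR adjusted p = 0.109). In ZXD versus CON 2 were higher and 4 lower, 13.3% and 26.7% (median 0.05), among the latter Mafg (-0.56, edgeR adjusted p = 0.0200, lost without CON 5 at 0.0538) and the coactivator gene Crebbp (-0.45, edgeR adjusted p = 0.0150). With 1 library left out the count of lower genes ran from 0 to 2 in HFD and from 2 to 5 in ZXD (2 without CON 3, CON 5 or ZXD 4), and that of higher genes in ZXD from 1 to 2. On library totals the counts were 4 higher and 0 lower in HFD and 6 and 0 in ZXD. Leaving out the 4 libraries highest in macrophage markers gave 1 higher and 0 lower in HFD, and 1 and 1 in ZXD. The calls of Bach2 in HFD and of Crebbp in ZXD were lost there.

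The list of glutathione synthesis, use and turnover, was the longest, with 28 genes. In HFD versus CON 3 were higher and 8 lower, 10.7% and 28.6% (median -0.18), and in ZXD versus CON 3 and 13, 10.7% and 46.4% (median -0.27). Without any 1 of CON 2 to CON 5, HFD 1, HFD 2 or HFD 5 the HFD count of lower genes was 4 or 5, and without CON 2 or CON 4 the ZXD count of higher genes was 1. On library totals 10 were higher and 4 lower in HFD, and 6 and 5 in ZXD. With the 4 libraries highest in macrophage markers left out, 2 were higher and 6 lower in HFD, and 2 and 5 in ZXD.

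The higher genes named here from that list do not make glutathione. Ggt1, which breaks extracellular glutathione down, went from 1.11 to 9.38 CPM in HFD (log2 3.06, edgeR adjusted p = 0.00139). Gpx2, a peroxidase best known from gut epithelium, went from 0.232 to 4.83 CPM (log2 4.32, edgeR adjusted p = 0.00257). In CON, Gpx2 lay near the level of 3 counts and passed the low-count filter only through the other groups. Ggt1, at 1.11 ± 0.57 CPM in CON (SD, n = 5), also needed the other groups to pass that filter. Like Slc7a11, neither gene is to be read against the share of all genes, though the count of higher genes in HFD includes both. Cholangiocytes express Ggt1, and 3 of 6 tested cholangiocyte markers were called higher in HFD, their sum going from a range of 17.9 to 28.2 CPM in CON to 50.1 to 94.0 in HFD; their part in these values was not tested. Among the lower genes, Hagh, the glyoxalase that releases glutathione from its lactoyl adduct, fell by 1.33 on the log2 scale in HFD (edgeR adjusted p = 0.00218). In ZXD, Gpx1, the main glutathione peroxidase of liver cells, went from 766 to 283 CPM (log2 -1.44, edgeR adjusted p = 0.00157). Glrx5 and Esd were lower in ZXD by 0.80 (log2 -0.80, edgeR adjusted p = 0.00104) and 0.85 (log2 -0.85, edgeR adjusted p = 0.00297).

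Of 19 genes of the thioredoxin and peroxiredoxin system, 0 were higher and 3 (15.8%) lower in HFD versus CON (median -0.18), and 1 was higher and 7 (36.8%) lower in ZXD versus CON (median -0.37). With 1 library left out the lower genes in HFD numbered 2 to 5 (5 without ZXD 4) and the higher genes in ZXD 1 to 2. Msrb1, a methionine sulfoxide reductase, fell by 0.58 in HFD (edgeR adjusted p = 0.00541) and by 1.01 in ZXD (edgeR adjusted p = 9.98e-05). Sesn2, a sestrin and a known NRF2 and ATF4 target, fell by 0.95 (edgeR adjusted p = 0.00714) and 0.83 (edgeR adjusted p = 0.00988), whereas Sesn3 was higher in ZXD (log2 1.19, edgeR adjusted p = 0.00863). Txnip, the thioredoxin inhibitor, was lower in HFD (log2 -1.19, edgeR adjusted p = 0.0346), a call that 7 of the 15 left-out libraries ended. On library totals the counts turned to 7 higher and 0 lower in HFD and 5 and 1 in ZXD, and the calls of Sesn2 and, in HFD, of Msrb1 were lost. With the 4 libraries highest in macrophage markers left out, 0 were higher and 2 lower in HFD, and 1 and 2 in ZXD. The calls of Txnip in HFD and of Sesn2 in ZXD were lost there.

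NADPH feeds both reductases. Of 13 genes of its supply, 2 (15.4%) were lower in HFD (median -0.46), namely the NAD kinases Nadk (log2 -0.46, edgeR adjusted p = 0.00619) and Nadk2 (log2 -0.75, edgeR adjusted p = 0.0284), and Nadk2 lost its call without any 1 of CON 3, CON 4, HFD 2, HFD 3 or HFD 5. With 1 library left out, 1 to 3 were lower and 0 to 1 higher in HFD. In ZXD 1 was higher and 3 lower, 7.69% and 23.1% (median -0.36). In ZXD versus CON, Nadk was at -0.39 (edgeR adjusted p = 0.00975) and Nadk2 at -0.78 (edgeR adjusted p = 0.0164), and both were called lower. On library totals no gene of this list was lower in either comparison, and 2 and 3 were higher. Leaving out the 4 libraries highest in macrophage markers gave 0 higher and 4 lower in HFD, and 1 and 4 in ZXD.

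Among 24 other reported NRF2 targets, 3 were higher and 1 lower in HFD, 12.5% and 4.17% (median -0.03), and 3 higher and 5 lower in ZXD, 12.5% and 20.8% (median -0.06), so the shares of higher genes were near or below those of all genes. Abcc3, an efflux pump for conjugates and bile acids, rose from 13.8 to 123 CPM in HFD (log2 3.15, edgeR adjusted p = 6.05e-05) and to 80.8 CPM in ZXD (log2 2.54, edgeR adjusted p = 0.000241). Ftl1, the ferritin light chain, was higher in HFD (log2 0.68, edgeR adjusted p = 0.00662), though reads shared with copies of this gene make its level uncertain. Aldh3a2, a fatty aldehyde dehydrogenase, fell by 1.15 in HFD (edgeR adjusted p = 0.00782) and by 0.93 in ZXD (edgeR adjusted p = 0.0149). Akr1b8 was higher in ZXD (log2 2.61, edgeR adjusted p = 0.0176), a call lost without ZXD 4 (edgeR adjusted p = 0.0933). Without any 1 of CON 2, CON 3, CON 5, ZXD 3, ZXD 4 or ZXD 5 the count of lower genes in ZXD was 2 or 3. In HFD the counts on leaving out 1 library were 2 to 5 higher and 1 to 3 lower. On library totals 8 were higher in each comparison, with 1 and 0 lower. When the 4 libraries highest in macrophage markers were left out, 4 were higher and 2 lower in HFD, and 2 and 1 in ZXD. Akr1b8 was not called there.

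Glutathione transferases attach glutathione to electrophiles, and reads shared within this family make single genes uncertain. Of 22 tested, 2 were higher and 1 lower in HFD, 9.09% and 4.55% (median -0.10), and 2 higher and 6 lower in ZXD, 9.09% and 27.3% (median -0.56). On library totals 5 were higher and 0 lower in HFD, and 4 and 1 in ZXD. Gstp1 (log2 1.68, edgeR adjusted p = 0.0330) and Gsta3 (log2 1.94, edgeR adjusted p = 0.0461) were the higher ones in HFD, and each lost its call in 6 or 11 of the 15 fits without 1 library. Gsto1 was lower in HFD (log2 -0.73, edgeR adjusted p = 0.0264, lost without any 1 of CON 2, CON 3, CON 5, HFD 2 or HFD 5, highest edgeR adjusted p = 0.0716) and in ZXD (log2 -0.77, edgeR adjusted p = 0.0140), and Gstt1 in ZXD (log2 -1.003, edgeR adjusted p = 0.00908). Neither call of Gsto1 held on library totals. On leaving out 1 library 2 to 11 genes were lower in ZXD, with 2 without CON 2, CON 3, ZXD 3 or ZXD 5 and 11 without ZXD 2, and 0 to 2 were higher; in HFD 0 to 3 were higher and 0 to 2 lower. No gene of it was lower in either comparison without the 4 libraries highest in macrophage markers.

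**Figure D4:**
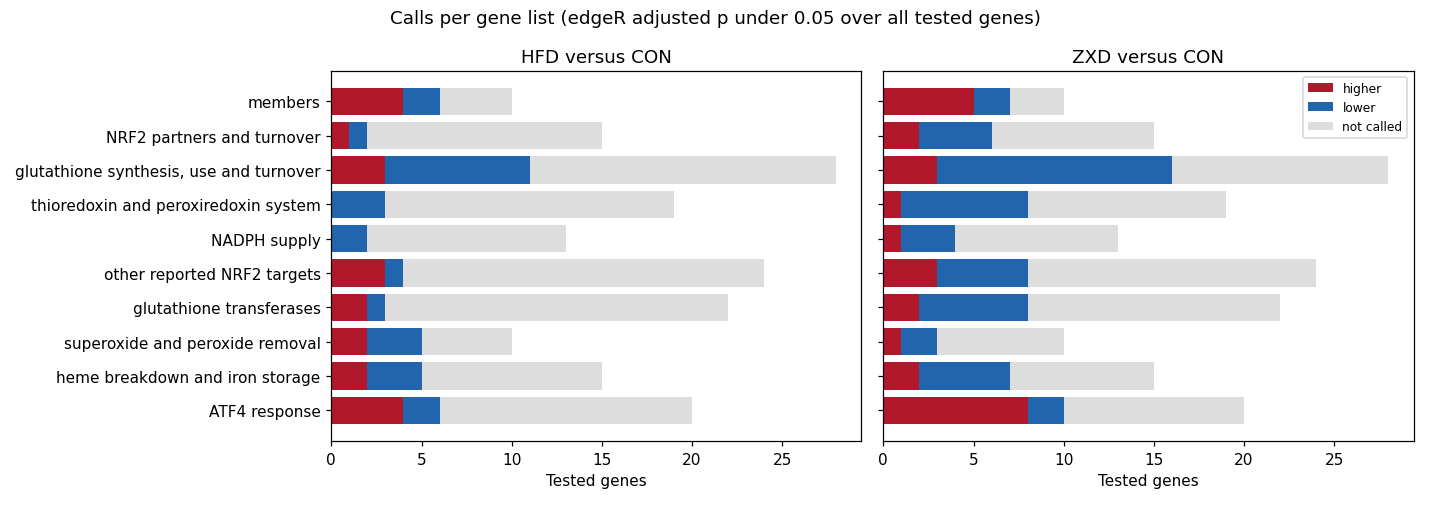
Number of tested genes called higher, called lower or not called (edgeR adjusted p under 0.05) in the 10 genes, shown as members, and in 9 lists around the pathway, for HFD versus CON and ZXD versus CON. The members and the ATF4 list have more higher than lower calls in both comparisons. The other reported NRF2 targets and the glutathione transferases do so in HFD versus CON alone. The glutathione list has 8 and 13 lower calls. On library totals it instead has 10 higher and 4 lower in HFD versus CON and 6 and 5 in ZXD versus CON, and most lists shift the same way.

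Of 10 genes that remove superoxide and peroxides or bind metals, 2 were higher and 3 lower in HFD (median -0.41). In ZXD 1 (10.0%) was higher and 2 were lower (median -0.38). Both shares in HFD and the share of lower genes in ZXD lay above those of all genes. The share of higher genes in ZXD lay below. With 10 genes tested, 1 gene is 10.0% of this list, so none of these differences is read as a departure from all genes. The count of lower genes in HFD also changed with the libraries used, as given below. The metallothioneins Mt2A (108 to 703 CPM, log2 2.70, edgeR adjusted p = 0.000634) and Mt1 (231 to 859 CPM, log2 1.89, edgeR adjusted p = 0.0024) were the higher ones in HFD. Pon1, the paraoxonase that liver cells secrete onto lipoprotein particles, went from 1288 to 572 CPM in HFD (log2 -1.17, edgeR adjusted p = 0.00745) and to 494 CPM in ZXD (log2 -1.38, edgeR adjusted p = 0.00234). The count of lower genes was 1 without any 1 of CON 1 to CON 4, HFD 2, HFD 3 or HFD 5 in HFD, and 5 without ZXD 2 in ZXD, where that of higher genes ran from 1 to 2. On library totals 2 were higher and 1 lower in HFD, and 3 and 1 in ZXD. When the 4 libraries highest in macrophage markers were left out, 2 were higher and 2 lower in HFD, and 1 and 1 in ZXD.

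Heme breakdown and iron storage, with Hmox1 left out, had 2 higher (13.3%) and 3 lower of 15 in HFD (median -0.22), and 2 (13.3%) and 5 (33.3%) in ZXD (median -0.20). Beside Hmox2, Alas1, the rate-limiting enzyme of heme synthesis in liver, fell from 741 to 206 CPM in HFD (log2 -1.85, edgeR adjusted p = 0.000758) and to 227 CPM in ZXD (log2 -1.70, edgeR adjusted p = 0.00114). Blvra, which reduces the biliverdin that heme oxygenase makes, was higher in ZXD (9.51 to 27.8 CPM, log2 1.54, edgeR adjusted p = 0.00493). So in ZXD, Hmox1 and Blvra were called higher and Hmox2 and Alas1 lower than in CON. HFD likewise had Hmox1 called higher, narrowly, and Hmox2 and Alas1 lower, and edgeR called no gene between ZXD and HFD. The ZXD call of Hmox1 was lost without the 4 libraries highest in macrophage markers. On library totals 4 were higher and 3 lower in HFD, and 6 and 2 in ZXD. Without those 4 libraries, 1 was higher and 3 lower in HFD, and 2 and 3 in ZXD.

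ATF4 answers amino acid shortage and shares Slc7a11 with NRF2 as a target. Of 20 genes of its response, 4 were higher and 2 lower in HFD (median 0.26). In ZXD 8 were higher and 2 lower (median 0.24). The shares of higher genes lay above those of all genes in both comparisons. The shares of lower genes, 10.0% each, lay below those of all genes. Asns, the asparagine synthetase and a classic ATF4 target, rose from 1.57 to 16.1 CPM in HFD (log2 3.35, edgeR adjusted p = 0.000641) and to 16.0 CPM in ZXD (log2 3.34, edgeR adjusted p = 0.00059), while Shmt2, a serine and one-carbon enzyme, fell by 1.06 (edgeR adjusted p = 0.00025) and 1.04 (edgeR adjusted p = 0.000248). Atf3 was higher in ZXD (log2 2.32, edgeR adjusted p = 0.00896, not called by limma voom). The count of higher genes in HFD was 1 without CON 2, CON 3, HFD 2 or HFD 5 and 2 without CON 1, CON 4, CON 5 or ZXD 3, and in ZXD it was 4 without ZXD 4. Without the 4 libraries highest in macrophage markers it was 1 in HFD and 3 in ZXD, and on library totals 11 and 10, with 1 lower in each comparison.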

How the data were processed

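The authors deposited 1 table with whole-number read counts and FPKM values per gene and library, per the file headers. The deposited FPKM values equalled the count over gene length and total count, within 0.01% for 100% of values above 0, and carry no further scaling. Coordinates in the table are not printed, since its build is not stated. The submitters' processing notes name edgeR; for aligner, counter, strand use, build and annotation the sources used here give nothing. Reads of overlapping genes cannot be told apart where strand was not used. Groups and replicate numbers came from the sample titles. No 2 libraries agreed within sampling noise.

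Counts were filtered (filterByExpr by group, minimum count 10, total 15), scaled with TMM and fitted in edgeR 4.0.16 (R 4.3.3) with group as the term over all 15 libraries, 12 residual degrees of freedom, robust estimateDisp and glmQLFit, and tested with glmQLFTest, Benjamini-Hochberg over 13163 genes. Log2 CPM for likeness used a prior count of 2. Within-library ratios were tested by a two-sided exact permutation test (scipy 1.17.1) on log2 count ratios. The fit was tested on simulated data. Alternatives were other scalings, filters and tools (limma 3.58.1, DESeq2 1.42.0), only the groups compared, a replicate block and each library left out.

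The 10 genes, the 9 further lists and the 8 marker lists (267 entries in all, 260 in the table) were chosen with earlier results of these data known. Named are all 10 genes, up to 3 called genes of each list and comparison with the smallest adjusted p, and the 3 genes nearest to Nqo1 and to Hmox1. A gene that this rule names is not reported here.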

Additional observations from a re-analysis of the deposited data

How the results depend on the processing

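Depth limited Slc7a11, with 3 counts in all of CON. In HFD versus CON the 4 genes called higher became 2 with no filter on low counts, 2 with the replicate block and 2 without the 4 libraries highest in macrophage markers, which was tried after seeing the data. The 2 called lower became 1 on library totals, 1 with no filter, 1 with the block and 1 without the 4 libraries. All 2758 genes called became 5895 on library totals and 1604 without the 4 libraries. In ZXD versus CON the 5 called higher became 3 with limma voom, 3 with only the groups compared and 0 without the 4 libraries. The 2 called lower became 1 on library totals, 1 with the block and 1 without the 4 libraries, and all 4299 became 6674 and 1957 on library totals and without the 4 libraries. In ZXD versus HFD the 0 genes called became 348 with DESeq2. Fewer libraries in the fit lower such counts by themselves; the other causes were not tested.

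With 1 library left out, the genes called higher numbered 2 to 5, those called lower 1 to 2 and all calls 1697 to 3235 in HFD versus CON, 3 to 5, 1 to 3 and 3037 to 4680 in ZXD versus CON, and 0 to 0, 0 to 0 and 0 to 7 in ZXD versus HFD. Log2 ratio differences ran, for HFD minus CON, ZXD minus HFD and ZXD minus CON in turn, from -0.37 to -0.15, -0.089 to 0.13 and -0.32 to -0.17 for Gclm to Gclc, from -0.60 to -0.47, 0.07 to 0.15 and -0.50 to -0.37 for Keap1 to Nfe2l2, and from 1.71 to 2.23, 0.19 to 0.72 and 2.16 to 2.70 for Hmox1 to Hmox2. In ZXD versus HFD, signs near 0 turned for Gclc (-0.15 to 0.20), Gclm (-0.063 to 0.22) and Srxn1 (-0.25 to 0.030), and in ZXD versus CON for Keap1 (-0.047 to 0.018). On library totals Txnrd1 turned to 0.18 and 0.068, Gsr to 0.30 and 0.053, in HFD and ZXD versus CON, and in ZXD versus CON Keap1 turned to 0.41 and Nadk to 0.041.

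Same-numbered libraries of different groups did not deviate together: over 15 such pairs the correlation of deviations from the group means over genes ran from -0.55 to 0.26, with a median of -0.05 against -0.01 for other pairs, and 4 were over 0.1. The numbers are thus not taken as a pairing. With the replicate block, HFD versus CON had 1909 calls (2758 without it) and ZXD versus CON one of 3466 (4299), and the 10 genes lost Hmox1 (edgeR adjusted p = 0.0685), Gclc (0.0621) and Srxn1 (0.0722) in the former and Gclc (0.0548) and Srxn1 (0.0753) in the latter.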
